A study of Rattus norvegicus with 65 samples.

Results

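The 26 control libraries of a series of 65 RNA sequencing libraries from primary neonatal rat cardiomyocytes are described here, with 24 h of culture compared with 6 h. They were chosen by their labels: 7 libraries of DMSO2 at 24 h against 7 at 6 h are the first estimate, and 6 libraries of DMSO1 at 24 h against 6 at 6 h are the second. Every one of the 14554 genes in the deposited count table entered the comparison. The controls received no drug, only the solvent dimethyl sulfoxide, at 0.25% in DMSO2 and at 1% in DMSO1. The cells came from 3 litters of newborn rats, were mixed before plating and spent about 36 h in a medium with serum. They were then kept overnight without serum, and every group shares these steps. The 6 or 24 h that follow are hours in serum-free medium, to which the study added a supplement that it names ITSS. The libraries of a group are parallel wells of 1 cell preparation and not separate animals, so p-values measure the spread between wells. That spread was estimated for each gene over all 65 libraries in 10 groups, those with a drug included. A wide spread in 1 group therefore counts in the p-values of the others.

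Neonatal cardiomyocytes beat in culture but keep a few fetal traits, among them transcripts of atrial natriuretic peptide and skeletal actin, and a limited ability to enter the cell cycle. Removal of serum withdraws growth factors and lipoproteins, to which cells answer through growth signalling and through sterol sensing by SREBP2, the factor that turns on genes of cholesterol synthesis and uptake. Enzymes for foreign compounds answer to the aryl hydrocarbon receptor and to NRF2, a sensor of electrophiles.

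The control libraries held 14332827 to 21970914 counts, and 12437 genes had at least 10 counts in each of them. Levels are given below as CPM, counts divided by a library total that TMM (trimmed mean of M-values) scaling has adjusted, and a gene was called where the false discovery rate (FDR) of the edgeR quasi-likelihood test was below 0.01. A log2 fold change is the level at 24 h over that at 6 h, so a positive value is a rise with culture time. Where a gene is followed by a pair of log2 fold changes, the first is that of DMSO2 and the second that of DMSO1. No label gives a batch.

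A library stood apart from its group. The headings of the count table name the group of a library and no replicate, so libraries are numbered here by the order of their columns, which need not be the number in their titles. The first library labelled DMSO1 at 24 h held 687 CPM of Cdkn1a, the cell cycle inhibitor p21, while its 5 companions held 96.5 to 119.5 and the 6 libraries of the drug 5FU at 24 h held 846 to 954 (CPM by total count). Mdm2, which encodes the ubiquitin ligase of p53, read 188 CPM in it, against 52 to 63.8 in its companions and 188 to 215 with 5FU. Over the genes with at least 10 counts in every control, its median absolute log2 distance was 0.167 to the mean of its companions and 0.224 to the mean of 5FU at 24 h, where the companions lay 0.0844 to 0.121 from the rest of their group and 0.316 to 0.329 from 5FU. These genes were chosen after their values were seen. Values without this library are given beside some of the results that it moved. Other values of DMSO1 include it, among them the rises of Col6a6, Capn6, Spon1 and Igfbp4, for which it held the lowest level of its group. A second library, the third column of DMSO1 at 6 h, lay nearer to DMSO2 than its companions in the genes that differ between both controls, and is named beside them.

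All 10 cardiomyocyte markers were in the table and summed to 38604 to 43098 CPM at 6 h and 34940 to 46329 at 24 h in DMSO2, so their summed ranges overlapped, and 4 rose and 2 fell of them. In DMSO1 they summed to 41553 to 54245 CPM at 6 h and 31743 to 38539 at 24 h, where every library of 24 h was below every library of 6 h. Of the 10, 4 rose and 3 fell there, with a median log2 fold change of -0.01. In DMSO1 Actc1 went from 5761 to 16600 CPM at 6 h to 3156 to 5562 at 24 h. Nppa went from 6808 to 9729 to 1137 to 2600 CPM, while Mb and Ckm were higher at 24 h without overlap. Fibroblast markers summed to 6741 to 10909 and 8737 to 12144 CPM, and endothelial markers to 278 to 349 and 305 to 404 CPM in DMSO2, so transcripts of both cell types were present at both times. The endothelial sum holds 10 of 11 listed markers, since Pecam1 is not in the table. In RNA from whole wells, more cells of a type and more RNA per cell cannot be told apart.

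The largest component of variance divided the control libraries by culture time. The first principal component held 43.7% ± 2.18 (jackknife SE, n = 26) of the variance and put every library of 24 h, at 55.4 to 91.5, apart from every library of 6 h, at -115 to -44.4. Its 5 genes of largest weight were Plcg1, Dlc1 and Adcy5, higher at 24 h, and Tubb4b and Tuba4a, lower at 24 h. Tubb4b encodes a beta tubulin and read 324 to 370.3 (median 338) CPM at 6 h and 92.9 to 107 (median 100) CPM at 24 h in DMSO2, with no overlap. Adcy5, an adenylyl cyclase of the heart, read 91.9 to 115 (median 110.2) and 242 to 314 (median 267) CPM. The second component, 10.1% of the variance, parted the libraries of 6 h by their solvent and also spread them within each solvent. The 6 libraries of DMSO1 at 6 h scored -11.2 to 83.9 on it and the 7 of DMSO2 at 6 h -71.2 to -20.6, which do not overlap. Within DMSO2 at 6 h, libraries 4, 5 and 6 scored -30.2 to -20.6 and the others -71.2 to -46.2. Within DMSO1 at 6 h, libraries 1, 2 and 6 scored 66.1 to 83.9 and the others -11.2 to 13.3.

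**Figure D1:**
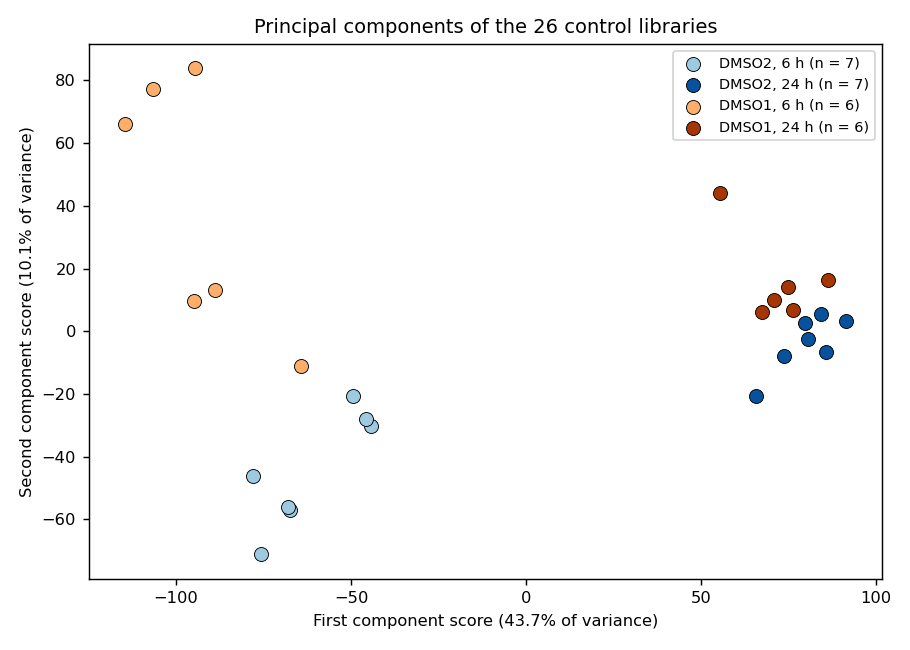
Scores of the 26 control libraries on the first component (horizontal, 43.7% of variance) and the second component (vertical, 10.1% of variance); each point is 1 library, coloured by solvent group and time. The libraries of 24 h lie at 55.4 or higher on the horizontal axis and those of 6 h at -44.4 or lower, and the DMSO1 and DMSO2 libraries of 6 h lie apart on the vertical axis.

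In DMSO2, 7651 of 14554 genes changed between 6 and 24 h (52.6%), of which 3935 rose (27% of genes tested) and 3716 fell (25.5%). With library size only in place of TMM scaling, 3035 rose and 4443 fell, so the balance of directions depends on the scaling. In DMSO1, 7834 changed (53.8%), with 3771 higher at 24 h (25.9%) and 4063 lower (27.9%), and without the library that stands apart 7773 changed. Changes of at least 2-fold were fewer: 998 genes in DMSO2 (6.86%), 517 of them up and 481 down, and 1524 in DMSO1 (10.5%), 728 up and 796 down. Levels of the times did not overlap for 5364 genes in DMSO2 (36.9%) and for 5193 in DMSO1 (35.7%). Both controls called 6144 genes, which is 80.3% of the DMSO2 calls and 78.4% of the DMSO1 calls, and 6119 of them moved the same way. The median over all genes was 0.02 in DMSO2 and 0.00 in DMSO1 on the log2 scale, beside which the medians of the gene lists below are to be read. Counts of rises and falls in a list are to be read beside the shares of all genes given above.

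**Figure D2:**
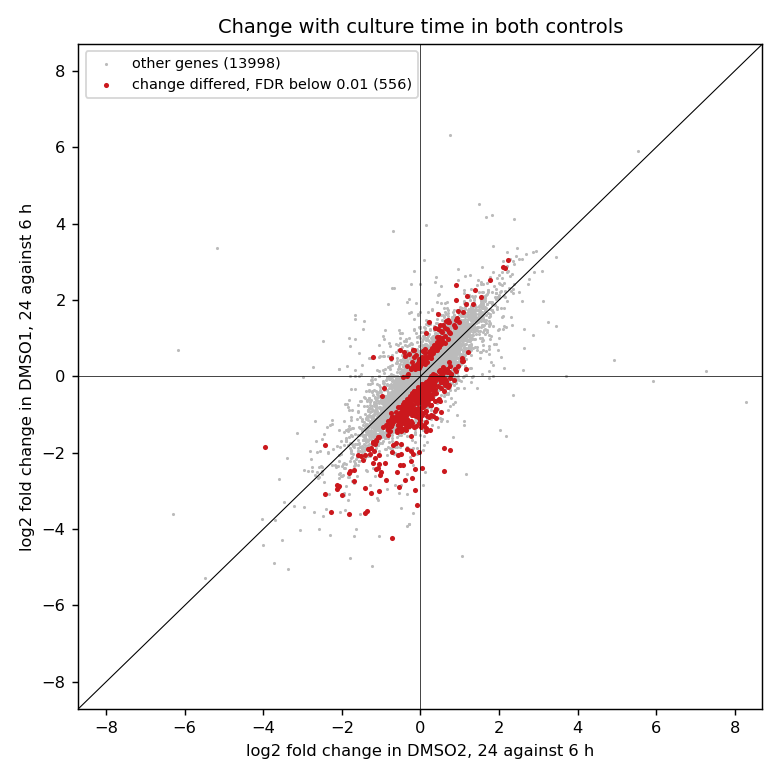
Each point is 1 of 14554 genes, placed by its log2 fold change from 6 to 24 h in DMSO2 (horizontal) and in DMSO1 (vertical); the diagonal marks equal change, and the 556 genes whose change differed between both controls at an FDR below 0.01 are red. Most genes lie along the diagonal, and 440 of the 556 red genes had the lower value in DMSO1.

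Among genes with a mean count of at least 100, enzymes for foreign compounds fell most. Cyp1a1, the cytochrome P450 that is the classic target of the aryl hydrocarbon receptor, read 9.31 to 13.7 (median 11) CPM in the 7 DMSO2 libraries of 6 h and 0.466 to 1.34 (median 0.495) CPM in those of 24 h. Every library of 24 h was below every library of 6 h, and the log2 fold change was -4.04 ± 0.19 (SE, FDR = 2.19e-27) in DMSO2 and -3.74 ± 0.21 in DMSO1 (FDR = 9.59e-24). Aldh3a1, an aldehyde dehydrogenase, went from 12.9 to 19.5 (median 15.3) to 0.852 to 1.83 (median 1.40) CPM, a log2 fold change of -3.48 ± 0.15 (FDR = 9.63e-30). Nqo1, a quinone reductase shared by the aryl hydrocarbon receptor and NRF2, stood at 147 to 173 (median 160.2) CPM at 6 h and 24.2 to 37.8 (median 31.2) at 24 h, again without overlap, and fell by 2.35 ± 0.10 in DMSO2 (FDR = 5.20e-29) and fell by 1.98 ± 0.11 in DMSO1 (FDR = 2.10e-24). In DMSO1 at 24 h the highest Nqo1 value, 69.4 CPM, was that of the library that stands apart. Gsta5, a glutathione transferase, fell by 2.62 in DMSO2 and fell by 2.66 in DMSO1 on the log2 scale.

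Other members of the receptor's circuit were looked up after these values were seen. Ahr, the receptor itself, read 8.60 to 13 (median 10.9) CPM at 6 h and 5.44 to 7.32 (median 6.17) at 24 h in DMSO2, a log2 fold change of -0.81 ± 0.11 (FDR = 2.86e-09). Its repressor Ahrr changed by -1.41 in DMSO2 and -1.37 in DMSO1, and Cyp1b1 by -0.92 and -1.03. Tiparp, another target, rose by 0.35 in DMSO2 (FDR = 4.15e-05) and had a value of 0.16 in DMSO1 (FDR = 0.071), so the known targets did not all move one way. Of 24 measured NRF2 targets and antioxidant genes, 1 rose and 16 fell in DMSO2 (median -0.30) and 1 rose and 14 fell in DMSO1 (median -0.26). After Nqo1 the largest falls in DMSO2 were those of Srxn1, sulfiredoxin (-1.57), and Gclc, the catalytic subunit of glutathione synthesis (-1.17), while Gstt1 rose by 0.69. Nfe2l2, which encodes NRF2, had a value of 0.07 (FDR = 0.33).

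Genes of iron and selenium handling moved both ways: 8 rose and 10 fell of 27 in DMSO2 and 8 rose and 11 fell in DMSO1. These counts are to be read against the 27% of all genes that rose and the 25.5% that fell in DMSO2. The transferrin receptor gene Tfrc, through which cells take up iron, fell by 1.44 in DMSO2 and fell by 1.95 in DMSO1, and heme oxygenase Hmox1 fell (-1.24 and -0.78). Ceruloplasmin (Cp) rose by 1.31 and 1.33, and Selenop, the plasma selenium carrier, by 1.25 and 1.52.

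Cholesterol synthesis had the lowest median of the 54 gene lists. In DMSO2 23 of its 25 genes fell, with a median of -1.38, and in DMSO1 23 fell, with a median of -1.88. Hmgcs1, which makes the precursor of mevalonate, read 381 to 450.1 (median 409) CPM at 6 h and 84.1 to 100.3 (median 97.2) at 24 h in DMSO2, and 547 to 881 (median 790.3) and 81.5 to 106 (median 94.7) CPM in DMSO1. The levels of 24 h overlapped between both controls and those of 6 h were higher in each DMSO1 library than in any DMSO2 library. Its log2 fold change was -2.11 ± 0.10 in DMSO2 (FDR = 3.60e-26) and -2.96 ± 0.12 in DMSO1 (FDR = 3.94e-31), a difference of -0.85 ± 0.15 (FDR = 8.29e-05). Msmo1, a sterol demethylase, fell (-2.12 and -2.86), and Idi1, an isomerase of the pathway, (-2.10 and -2.91). Srebf2, which encodes SREBP2, fell (-0.81 and -1.12). The change differed between both controls for 11 of the 25 genes, each with the larger fall in DMSO1, where 3.82% of all genes tested differed and 3.02% differed in this direction. That count was 8 without the library that stands apart and 14 without library 3 of DMSO1 at 6 h.

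Fatty acid synthesis was mixed, with 5 rises and 10 falls of 19 genes in DMSO2 and 5 rose and 11 fell in DMSO1. Stearoyl-CoA desaturase Scd fell (-1.57 and -1.77) and fatty acid synthase Fasn (-0.88 and -1.35), whereas Acacb, the acetyl-CoA carboxylase that restrains mitochondrial fat uptake, rose by 0.88 and 1.13, and the lipid droplet gene Plin5 by 0.74 and 0.86.

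Most genes of DNA replication and mitosis fell. Of 34 DNA replication genes, 31 fell in DMSO2 (median -0.83) and 32 fell in DMSO1 (median -1.15). Mcm5, a subunit of the replicative helicase, read 45.8 to 52.2 (median 48.7) CPM at 6 h and 14.8 to 19.3 (median 17.2) at 24 h in DMSO2, and fell by 1.52 there and fell by 2.09 in DMSO1. Rrm2, of ribonucleotide reductase, fell (-1.49 and -1.52). Gins2 and Tyms had values of -0.07 and -0.20 in DMSO2 and were not called in either control.

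Of 29 genes of G2/M and mitosis, 26 fell in DMSO2 (median -0.99) and 27 fell in DMSO1 (median -1.06). Kif23, a kinesin of cytokinesis, fell (-1.42 and -1.54), and cyclin A2 (Ccna2) (-1.36 and -1.41). Top2a, a topoisomerase of dividing cells, read 80.9 to 98 (median 90.7) CPM at 6 h and 30.6 to 41.4 (median 36.7) at 24 h in DMSO2. These libraries did not overlap. In DMSO2 27% of all genes rose and 25.5% fell. Of 14 cyclins, kinases and inhibitors of G1, 4 rose and 3 fell there. Among them Rb1 rose by 0.79 and its relative Rbl1 fell by 0.70. Of the 14, 3 rose and 6 fell in DMSO1 (median -0.07), and 4 rose and 7 fell there without the library that stands apart (median -0.35). Cdkn1a had log2 values of -0.46 in DMSO2 (FDR = 0.0617) and 0.26 in DMSO1 (FDR = 0.33). In DMSO2 its levels did not overlap, at 134.5 to 155 CPM at 6 h and 93.4 to 116.5 at 24 h. The spread in its test was estimated over all groups, the library that stands apart included. In DMSO1 Cdkn1a fell by 0.68 without that library (FDR = 8.25e-09). Of 20 p53 targets, 3 rose and 4 fell in DMSO1 with that library (median 0.07) and 3 rose and 8 fell without it (median -0.21), and 2 rose and 6 fell in DMSO2.

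**Figure D3:**
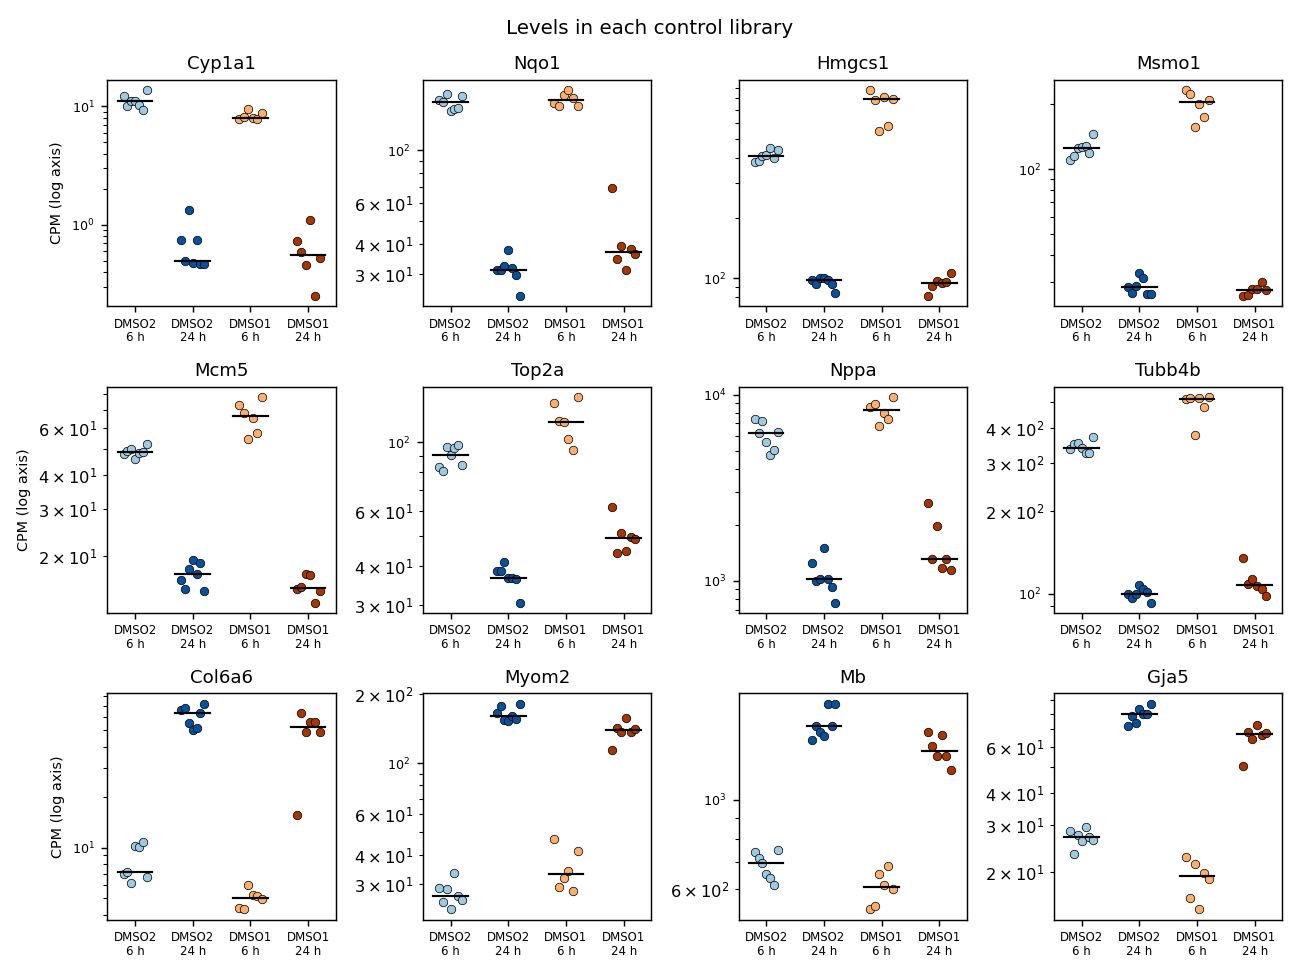
CPM on a log axis in each control library for 12 genes, in columns for DMSO2 at 6 and 24 h (7 libraries each) and DMSO1 at 6 and 24 h (6 each); points are libraries and bars are medians. In each panel the libraries of 24 h lie all below (Cyp1a1 to Tubb4b) or all above (Col6a6 to Gja5) those of 6 h of the same control, and the lowest Col6a6 value at 24 h, 15.6 CPM, is that of library 1 of DMSO1.

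The promoters of mitotic genes are shown because these genes fell together, and so are those of ribosome assembly and cholesterol synthesis. RefSeq windows on the rat assembly GRCr8 were matched for 11403 of the 14554 genes, and the 250 bases before each start site were searched on both strands, where matches of different motifs may share bases. A CCAAT box (CCAAT) lay in 79.2% of 24 windows of G2/M and mitosis and in 34.8% of all 11403. The CHR motif (TTTGAA) lay in 50% and 10.3%, and both motifs together in 11 of the 24 (45.8%) and in 3.82% of all. The pair that fell most among those with both motifs, Kif23 (minus strand, chr8:71320585-71320834) and Top2a (minus strand, chr10:84473094-84473343), follow 5′ to 3′ with both motifs in capitals:
Kif23: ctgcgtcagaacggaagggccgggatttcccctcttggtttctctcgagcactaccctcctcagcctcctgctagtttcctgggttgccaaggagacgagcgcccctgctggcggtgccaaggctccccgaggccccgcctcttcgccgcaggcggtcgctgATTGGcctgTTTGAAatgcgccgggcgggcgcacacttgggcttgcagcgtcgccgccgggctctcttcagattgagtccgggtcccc
Top2a: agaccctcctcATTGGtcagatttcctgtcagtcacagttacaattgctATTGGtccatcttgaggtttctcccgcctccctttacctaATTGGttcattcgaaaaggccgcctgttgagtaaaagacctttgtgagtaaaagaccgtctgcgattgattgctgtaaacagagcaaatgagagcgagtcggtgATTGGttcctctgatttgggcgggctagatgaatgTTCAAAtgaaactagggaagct

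An E-box (CACGTG) lay in 21.1% of 38 windows of ribosome biogenesis and in 7.87% of all, and an ETS-like core (CCGGAA) in 47.4% and 22.2%. Among cholesterol synthesis genes the CCAAT box lay in 82.4% of 17 windows and the SP1 box (GGGCGG) in 88.2%, against 34.8% and 56.8% of all. The members with these motifs that fell most are Utp20 (minus strand, chr7:25102850-25103099) and Mybbp1a (plus strand, chr10:57555208-57555457), with the E-box in capitals, and Msmo1 (plus strand, chr16:29746863-29747112) and Hmgcs1 (plus strand, chr2:53382054-53382303), with CCAAT and SP1 boxes in capitals:
Utp20: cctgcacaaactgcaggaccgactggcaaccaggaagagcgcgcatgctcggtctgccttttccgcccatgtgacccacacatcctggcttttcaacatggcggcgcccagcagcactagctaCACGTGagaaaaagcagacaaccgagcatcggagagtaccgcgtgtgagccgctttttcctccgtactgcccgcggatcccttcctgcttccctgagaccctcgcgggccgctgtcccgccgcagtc
Mybbp1a: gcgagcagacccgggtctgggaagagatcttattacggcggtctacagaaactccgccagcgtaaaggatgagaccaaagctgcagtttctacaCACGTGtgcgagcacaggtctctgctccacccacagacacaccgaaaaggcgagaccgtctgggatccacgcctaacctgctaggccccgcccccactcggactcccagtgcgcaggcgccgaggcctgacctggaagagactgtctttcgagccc
Msmo1: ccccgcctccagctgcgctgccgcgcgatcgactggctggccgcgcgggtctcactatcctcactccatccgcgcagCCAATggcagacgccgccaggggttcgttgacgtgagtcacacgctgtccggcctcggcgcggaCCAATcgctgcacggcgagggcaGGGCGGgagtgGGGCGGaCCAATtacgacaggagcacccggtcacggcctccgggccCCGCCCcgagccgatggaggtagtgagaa
Hmgcs1: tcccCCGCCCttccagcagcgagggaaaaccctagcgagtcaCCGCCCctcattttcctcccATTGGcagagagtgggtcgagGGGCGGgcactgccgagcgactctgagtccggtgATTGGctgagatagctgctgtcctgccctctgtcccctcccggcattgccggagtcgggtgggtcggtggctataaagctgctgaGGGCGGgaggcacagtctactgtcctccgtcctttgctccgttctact

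Among all genes that fell at least 2-fold in DMSO2 the CCAAT box lay in 41.2% of 371 windows, and among those that rose at least 2-fold in 31.2% of 368. The shares of the ETS-like core were 16.2% and 9.78% (all, 22.2%), and over every gene called in DMSO2 they were 28.8% of 3014 windows of falls and 16.5% of 3077 of rises. The AP-1 motif (TGANTCA) lay in 7.82% and 6.52% (all, 4.49%), the CRE (TGACGTCA) in 2.96% and 1.63% (all, 2.71%) and the TATA box (TATAAA) in 11.6% and 10.6% (all, 6.88%). A match of letters is no measure of binding.

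Most genes of the machinery that makes and breaks down proteins fell, by small amounts. Of 40 genes of ribosome biogenesis, 35 fell in DMSO2 (median -0.46) and 38 fell in DMSO1 (median -0.69). Rrp12, a ribosome export factor, read 38.9 to 46.6 (median 39.7) CPM at 6 h and 16.1 to 20.7 (median 18) at 24 h in DMSO2, and fell by 1.18 there and fell by 1.96 in DMSO1. Mrto4, of the large subunit's assembly, fell (-0.86 and -1.09). Of 57 cytosolic ribosomal protein genes, 50 fell in DMSO2 (median -0.30) and 55 fell in DMSO1 (median -0.42), with Rps25 (-0.50 and -0.65) as the largest fall in DMSO2. Levels of the times did not overlap for only 7 of the 57 in DMSO2, and for 49 in DMSO1. Over all genes these shares were 36.9% and 35.7%. Ribosomal protein genes have many near-identical pseudogene copies that can share reads with them, so single members are uncertain, and 22 of the 79 listed are not in the table.

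All 30 measured proteasome genes fell in both controls, with medians of -0.47 in DMSO2 and -0.44 in DMSO1. Psmd14, the deubiquitinase of the lid, went from 67 to 81 (median 70.2) to 38.3 to 47.1 (median 41) CPM in DMSO2 and fell (-0.79 and -0.87), and Psmb6, a catalytic subunit, fell (-0.73 and -0.81). Of 71 mitochondrial ribosome genes, 1 rose and 52 fell in DMSO2 (median -0.35) and 1 rose and 53 fell in DMSO1 (median -0.36). Translation factors gave 2 rises and 26 falls among 41 genes in DMSO2, with Eif5a (-0.84) and Eif4a1 (-0.73) lowest and Eif4b (0.35) highest. Of 22 chaperonin and heat shock genes, 16 fell in DMSO2, among them the chaperonin subunits Cct6a (-0.55) and Tcp1 (-0.49). Of 20 nucleotide synthesis genes, 2 rose and 13 fell in DMSO2, with Nme1 at -1.01 and Dhodh, of pyrimidine synthesis, at -0.88.

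Aminoacyl-tRNA synthetases, the enzymes that load amino acids onto tRNA, showed 15 falls of 20 in DMSO2 (median -0.30) and 19 in DMSO1 (median -0.57). Where 3.82% of all genes differed between both controls, the change differed for 8 of these 20. That count was 5 without the library that stands apart and 10 without library 3 of DMSO1 at 6 h. The largest of these differences was that of Cars1, -0.42 in DMSO2 and -1.05 in DMSO1. The related amino acid response genes under ATF4 were split, with 9 rises and 5 falls of 26 in DMSO2 and 5 rose and 9 fell in DMSO1. Atf5, a transcription factor of this response, rose by 1.21 and 1.25, and Psph (-0.75) and Phgdh (-0.67), of serine synthesis, fell in DMSO2. In the endoplasmic reticulum list, 8 rose and 4 fell of 26 in DMSO2, with the stress sensor gene Ern1 at 0.91 and Sdf2l1 at -0.65.

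More lysosomal genes rose than fell. Of 30, 18 rose and 6 fell in DMSO2 (median 0.28) and 20 rose and 3 fell in DMSO1 (median 0.35). Hexa, a subunit of hexosaminidase, read 49.9 to 56.5 (median 53.7) CPM at 6 h and 88.5 to 97.3 (median 93.3) at 24 h in DMSO2 and rose by 0.80, and Gaa, which breaks down glycogen in lysosomes, rose by 0.74. The regulator Tfeb fell by 0.30 in both. Of 22 autophagy genes, 11 rose and 5 fell in DMSO2, with Wipi1 (0.79) and the starting kinase Ulk1 (0.75) highest and Atg7 (-0.62) and Sqstm1 (-0.47) lowest.

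**Figure D4:**
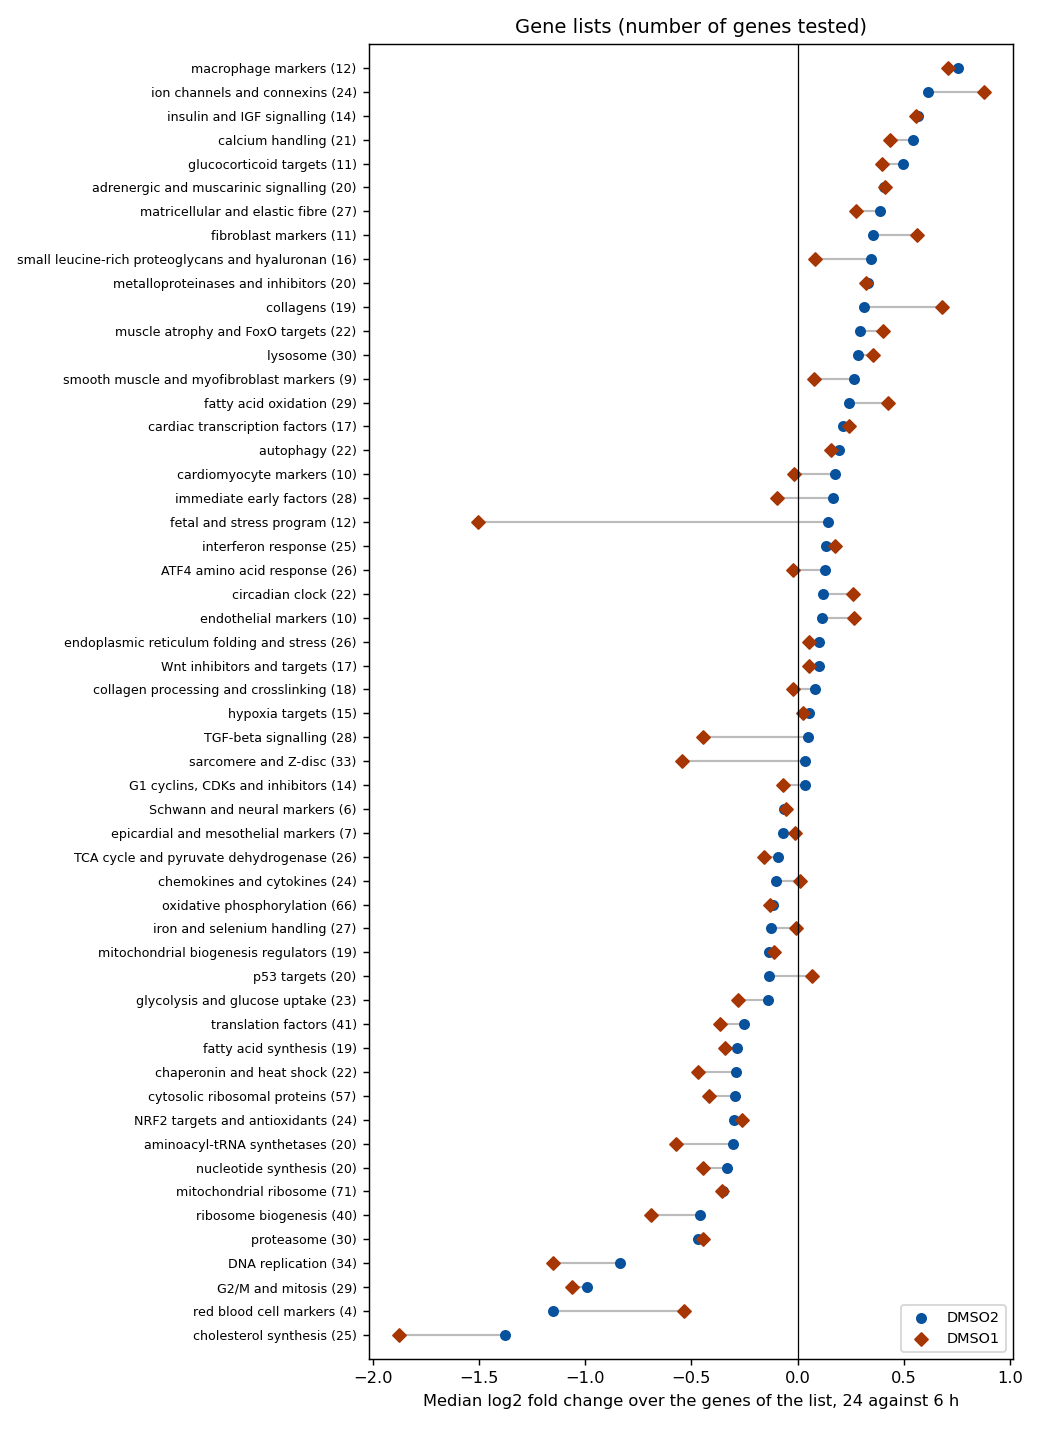
Median log2 fold change from 6 to 24 h over the genes of each of 54 lists, with the number of genes tested in brackets, in DMSO2 (circles) and DMSO1 (diamonds); a line joins the pair. Cholesterol synthesis, mitosis, DNA replication and red blood cell markers lie lowest in DMSO2, ion channels and macrophage markers highest, and the longest line is that of the fetal and stress program.

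Most genes of the electrical and calcium apparatus of the heart muscle cell rose. Of 24 ion channel and connexin genes, 18 rose and 2 fell in DMSO2 (median 0.61) and 19 rose and 2 fell in DMSO1 (median 0.88). Gja5, the connexin of atrial and conduction cells, read 23.3 to 29.5 (median 27) CPM at 6 h and 71.6 to 87.5 (median 79.6) at 24 h in DMSO2, a rise of 1.56 ± 0.12 (FDR = 6.75e-18) there and 1.79 ± 0.13 in DMSO1 (FDR = 1.16e-18). Gja1, the connexin of the working muscle, rose by 1.18 and 1.45, Kcnj5, of the channel that acetylcholine opens, by 1.27 and 1.19, and Kcnj2, of the inward rectifier, by 1.06 and 1.45. Kcne1, a subunit of the slow delayed rectifier, fell (-3.07 and -4.03) from low levels of 0.832 to 2.36 (median 1.63) CPM in DMSO2 at 6 h. Kcna5 fell by 1.25 in DMSO2 and had a value of -0.63 in DMSO1 (FDR = 0.0697).

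Of 21 calcium handling genes, 15 rose and 3 fell in DMSO2 (median 0.54) and 13 rose and 4 fell in DMSO1 (median 0.43). Ryr2, the release channel of the sarcoplasmic reticulum, read 467 to 839 (median 664) CPM at 6 h and 938 to 1319 (median 1222) at 24 h in DMSO2, with no overlap, and rose by 0.82 in both controls. Itpr2 (0.91) and triadin, Trdn (0.84), rose most in DMSO2, and Orai1 (-0.32) and Fkbp1b (-0.25) fell most. Of 20 adrenergic and muscarinic genes, 14 rose and 2 fell in DMSO2 and 13 rose and 3 fell in DMSO1, led by the receptor gene Adra1b (1.40 and 1.75) and Adcy5 (1.35 and 1.57). The falls were small, with Grk2 at -0.23 and Prkar2a at -0.20 in DMSO2. Of 17 cardiac transcription factors, 7 rose in DMSO2, and Irx4, a ventricular factor, had the largest rise (1.32 and 1.68).

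Of 33 sarcomere genes, 10 rose and 10 fell in DMSO2 (median 0.04), near the 27% and 25.5% of all genes. In DMSO1 6 rose and 18 fell (median -0.54), beside 25.9% and 27.9% of all genes. Myom2, of the adult M-band, read 23.2 to 33.3 (median 26.4) CPM at 6 h and 153 to 181 (median 160.3) at 24 h in DMSO2, and rose by 2.59 ± 0.13 in DMSO2 (FDR = 3.10e-25) and 1.97 ± 0.14 in DMSO1 (FDR = 4.46e-19). Acta1, skeletal actin, fell (-1.67 and -2.27), and Myl4, the atrial light chain, (-1.04 and -1.60). Nppa, atrial natriuretic peptide, read 4729.6 to 7416 (median 6222) CPM at 6 h and 764 to 1494 (median 1017) at 24 h in DMSO2 and fell by 2.51 there (FDR = 1.36e-20) and fell by 2.38 in DMSO1 (FDR = 1.98e-18). Of the myosin heavy chains, Myh6 had values of 0.21 (FDR = 0.0593) and -0.19 (FDR = 0.126), and Myh7 0.05 (FDR = 0.861) in DMSO2, while it fell by 1.02 in DMSO1 (FDR = 2.07e-04). Myoglobin, Mb, read 614 to 751 (median 698) CPM at 6 h and 1402 to 1728 (median 1521) at 24 h in DMSO2 and rose by 1.17 and 1.14, and muscle creatine kinase, Ckm, by 0.88 and 0.84.

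Of 22 genes of muscle atrophy and FoxO control, 11 rose and 2 fell in DMSO2 and 15 rose and 2 fell in DMSO1. Klf15, a factor of muscle metabolism, rose by 1.43 and 1.74. Fbxo32, the ubiquitin ligase atrogin-1, read 53.3 to 81.4 (median 72.2) CPM at 6 h and 125 to 158 (median 148) at 24 h in DMSO2 and rose by 1.08 and 1.67. Ddit4, an inhibitor of mTOR, fell by 0.27 in DMSO2. Of 14 insulin and IGF signalling genes, 9 rose and 1 fell in DMSO2 (median 0.57), among them Igfbp4 (1.36 and 1.71), the growth factor Igf1 (1.22 and 1.35) and Irs1 (1.21 and 1.12), and Htra1 fell by 0.57 in DMSO2.

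Genes of fuel use moved both ways. Beside them, 27% of all genes rose and 25.5% fell in DMSO2, and 25.9% rose and 27.9% fell in DMSO1. Of 29 fatty acid oxidation genes, 16 rose and 4 fell in DMSO2 (median 0.24) and 19 rose and 4 fell in DMSO1 (median 0.42), with Hadh (0.99 and 1.24) and Acsl1 (0.96 and 0.98) highest and the acyl-CoA synthetases Acsl3 (-0.56) and Acsl5 (-0.55) lowest of those called. Of 23 genes of glycolysis, 7 rose and 9 fell in DMSO2 and 6 rose and 9 fell in DMSO1. Eno1, the general enolase, read 1548 to 1991 (median 1798) CPM at 6 h and 884 to 1085 (median 936) at 24 h and fell by 0.91 in DMSO2, while Eno3, the muscle enolase, rose by 0.74. Likewise Ldha fell by 0.84 and Ldhb rose by 0.53, and Aldoc rose by 1.40 and 1.63. Of 66 oxidative phosphorylation genes, 3 rose and 21 fell in DMSO2 (median -0.12), with Cox8b, a heart isoform, at 0.58 and Atp5f1d at -0.49. Of 26 genes of the TCA cycle, 5 rose and 9 fell in DMSO2, with Idh2 at 0.64 and Idh3a at -0.39, and of 19 regulators of mitochondrial biogenesis 2 rose and 6 fell, with Ppargc1b at 0.74 and Tfb1m at -0.55.

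The largest rise among genes with a mean count of at least 100 was that of a matrix gene. Col6a6, a chain of collagen VI, read 6.17 to 10.7 (median 7.14) CPM at 6 h and 50.3 to 72.2 (median 63.2) at 24 h in DMSO2, and 4.30 to 6.01 (median 5.05) and 15.6 to 63.4 (median 52.5) in DMSO1. It rose by 2.87 ± 0.19 in DMSO2 (FDR = 1.29e-20) and 3.27 ± 0.21 in DMSO1 (FDR = 7.82e-21). Of 19 collagen genes, 9 rose and 2 fell in DMSO2 and 13 rose and 2 fell in DMSO1, with Col11a1 (2.16 and 2.09) next and Col12a1 (-1.04 and -1.37) lowest. The main fibrillar chain gene Col1a1 had a value of 0.17 in DMSO2 (FDR = 0.35) and rose by 0.70 in DMSO1. Of 27 matricellular and elastic fibre genes, 15 rose and 2 fell in DMSO2 (median 0.39), led by Fbln1 (1.91) and Mfap2 (1.81), while Fbln2 (-0.78) and Tnc (-0.62) fell. Periostin, Postn, made by activated fibroblasts, read 436 to 524 (median 484) CPM at 6 h and 1414 to 1604 (median 1514) at 24 h and rose by 1.64.

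Of 16 genes of small proteoglycans and hyaluronan, 8 rose and 2 fell in DMSO2 (median 0.34), with asporin, Aspn, at 1.99, Cemip at 1.69, Cd44 at -0.93 and Prelp at -0.70. Of these 16, 6 rose and 3 fell in DMSO1 (median 0.08). Of 20 metalloproteinase genes and inhibitors, 9 rose and 4 fell in each control. In DMSO2 the gelatinase Mmp2 was at 1.31 and Adam19 at 1.16, with stromelysin Mmp3 at -2.48 and the inhibitor Timp1 at -1.42. Mmp3 levels were low, at 0.68 to 1.40 CPM at 6 h and 0.057 to 0.428 CPM at 24 h in DMSO2. Of 18 collagen processing genes, 8 rose and 4 fell in DMSO2 (median 0.08), with the procollagen enhancer PCOLCE2 lowest at -2.33. Of these 18, 7 rose and 6 fell in DMSO1 (median -0.02). Among Wnt inhibitors and targets, 7 rose and 1 fell of 17 in DMSO2, with Dkk2 (1.98) and Frzb (1.23) highest and Wnt11 (-1.12) lowest. Of these 17, 5 rose and 3 fell in DMSO1.

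Markers of other cell types moved beside these groups. Macrophage markers summed to 70.3 to 84.7 CPM at 6 h and 123 to 152 at 24 h in DMSO2, and to 67.4 to 86.2 and 120.5 to 154 in DMSO1. The times did not overlap in either control, and 8 of 12 members rose in DMSO2 (median 0.75), Adgre1 (1.66) and lysozyme, Lyz2 (1.27), most. Of 11 fibroblast markers, 7 rose in DMSO2 and 9 rose and 1 fell in DMSO1, and their summed range in DMSO1 was 4646 to 8458 CPM at 6 h and 6656 to 13365 at 24 h. Endothelial markers went both ways, with 4 rises and 3 falls of 10, Cldn5 (1.28) and Kdr (0.94) up and Vwf (-0.97) and Tek (-0.46) down in DMSO2. Smooth muscle markers gave 3 rises and 2 falls of 9, with Cnn1 at -1.48. Their sum went from 1201 to 1528 to 1052 to 1155 CPM in DMSO2 and from 1243 to 4464 to 788 to 1169 CPM in DMSO1, lower at 24 h without overlap in both. Of the red blood cell markers, Hbb (-1.40), Hba-a1 (-1.30) and Hba-a2 (-1.0) fell in DMSO2 and had values of -0.56, -0.58 and -0.52 in DMSO1 that were not called. Among 6 Schwann and neural markers Ngfr, a neurotrophin receptor, rose by 2.11 and 3.01 and the neuronal tubulin Tubb3 fell (-1.13 and -1.5), while the defining marker Sox10 is not in the table. Of 7 epicardial markers, 2 fell in DMSO2, with values of -1.12 for Krt8 and -1.05 for Upk1b, and 5 were not called (median -0.07). There 25.5% of all genes fell. For DMSO1 1 of these markers rose, 1 fell and 5 were not called (median -0.01). The part of these cell types in the changes of matrix, lysosomal and immune genes was not tested.

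Signals that act within hours were mixed. Of 22 clock genes, 10 rose and 1 fell in DMSO2 and 12 rose and 1 fell in DMSO1. Bmal1, the positive arm of the clock, read 5.99 to 7.71 (median 7.18) CPM at 6 h and 11.8 to 16.4 (median 14.2) at 24 h in DMSO2 and rose by 1.05 there and by 0.40 in DMSO1. Ciart, a repressor of the clock, fell (-1.61 and -1.76), and Per2 rose by 0.85 and 0.55. The sampling times are 18 h apart and the hour of day is not given, so phase and culture time cannot be told apart. Of 28 immediate early factors, 10 rose and 3 fell in DMSO2 and 7 rose and 10 fell in DMSO1, with Egr2 (1.77 and 1.38) and Egr3 (1.23 and 0.79) highest and Fosl1 (-0.58 and -1.06) lowest. Of 11 glucocorticoid targets, 8 rose and 2 fell in DMSO2, with Dusp4 (1.21) and Zbtb16 (0.86) up and Lcn2 (-0.84) and Fkbp5 (-0.79) down. Hypoxia targets gave 4 rises, led by Vegfa (1.16), and 2 falls, Car12 (-1.22) and Higd1a (-1.13), of 15. Over all genes 27% rose and 25.5% fell in DMSO2. Of 25 interferon genes 5 rose and 2 fell, with Ifit2 at 0.66 and Rsad2 at -1.44, and of 24 chemokines and cytokines 3 rose and 6 fell, with Il33, an alarmin, at 2.08, Cxcl11 at 1.13, Cxcl2 at -1.51 and Cxcl14 at -1.13. Il1rl1, which encodes the receptor for IL-33, fell by 2.44 in DMSO2 and fell by 3.07 in DMSO1.

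The 12 largest rises and 12 largest falls among genes with a mean count of at least 100 included further genes outside these lists. Capn6, an inactive calpain of muscle, rose by 2.68 and 3.20, and Lsmem1 by 2.59 and 3.06. Spon1, a secreted spondin, read 21.6 to 29.6 (median 24.5) CPM at 6 h and 129 to 147 (median 133) at 24 h and rose by 2.45 and 3.16. The remaining rises in DMSO2 were those of Zim1 (2.35), Nrk (2.33), Prom1 (2.25), Klhl33 (2.22), Atp6ap1l (2.16) and Gprin3 (2.14). Ppl, periplakin, fell (-2.42 and -1.80), and Inha, the inhibin alpha chain, (-2.11 and -2.34). Tceal7 fell (-2.53 ± 0.58 and -2.36 ± 0.41), with a wide spread of 4.67 to 31.3 (median 11.7) CPM in DMSO1 at 6 h. Krt18l1 fell (-2.28 and -3.55), and as a close copy of Krt18, which is not in the table, its reads and those of Krt18 cannot be told apart.

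The change with culture time differed between both controls for 556 genes (3.82%), 116 with the higher value in DMSO1 (0.797%) and 440 with the lower (3.02%). The gaps lay mostly at 6 h: in 439 of the 440 the mean level at 6 h was higher in DMSO1 than in DMSO2, and in 411 of the 440 the gap between both controls was wider at 6 h than at 24 h. The count was 519 without the library that stands apart. It was 1055 without library 3 of DMSO1 at 6 h, and 341, 351 and 340 without libraries 1, 2 and 6 of that group. With library size only in place of TMM, 578 of 784 differences were positive, so the balance depends on the scaling here too. That scaling moved the median of all differences by 0.13.

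Nppb, brain natriuretic peptide, a marker of stretched heart muscle, had the largest difference. Its 7 DMSO2 libraries of 6 h held 28 to 40.2 (median 32.6) CPM and those of 24 h 16.4 to 23.1 (median 20.4) CPM, without overlap. The 6 DMSO1 libraries of 6 h held 484, 702, 30.7, 196, 422 and 883 CPM and those of 24 h 22 to 28.4 (median 23.4) CPM. These values are in column order: 5 of them exceed every other control library, and the third lies within the range of DMSO2. The log2 fold change was -0.74 in DMSO2 (FDR = 0.0489) and -4.22 in DMSO1 (FDR = 2.07e-15), a difference of -3.49 ± 0.48 (FDR = 2.63e-06).

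The same libraries were high in the other genes of largest negative difference. Xirp2, of the intercalated disc, read 1203, 1511, 115, 274, 738 and 1488 CPM in DMSO1 at 6 h and 65.6 to 111 (median 82.8) CPM in DMSO2 at 6 h, a difference in change of -3.07 ± 0.44 (FDR = 2.84e-06). Ankrd1, a stretch-responsive protein of the sarcomere, read 2465, 3395, 483, 1098, 2213 and 3796 and 431 to 512 (median 488) CPM, a difference of -2.49 ± 0.31 (FDR = 2.52e-07). Ccn2, connective tissue growth factor, read 159.8, 182, 24.8, 64, 147 and 225 and 29.5 to 36.5 (median 33.8) CPM, a difference of -2.70 ± 0.29 (FDR = 4.00e-09). In each of these genes libraries 1, 2, 5 and 6 were highest, library 4 was between and library 3 was lowest, at or near the DMSO2 levels. Ankrd1 and Ccn2 rose with time in DMSO2, by 0.61 and 0.77, and fell in DMSO1. Scn3b, a sodium channel subunit, had a difference of -2.83.

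**Figure D5:**
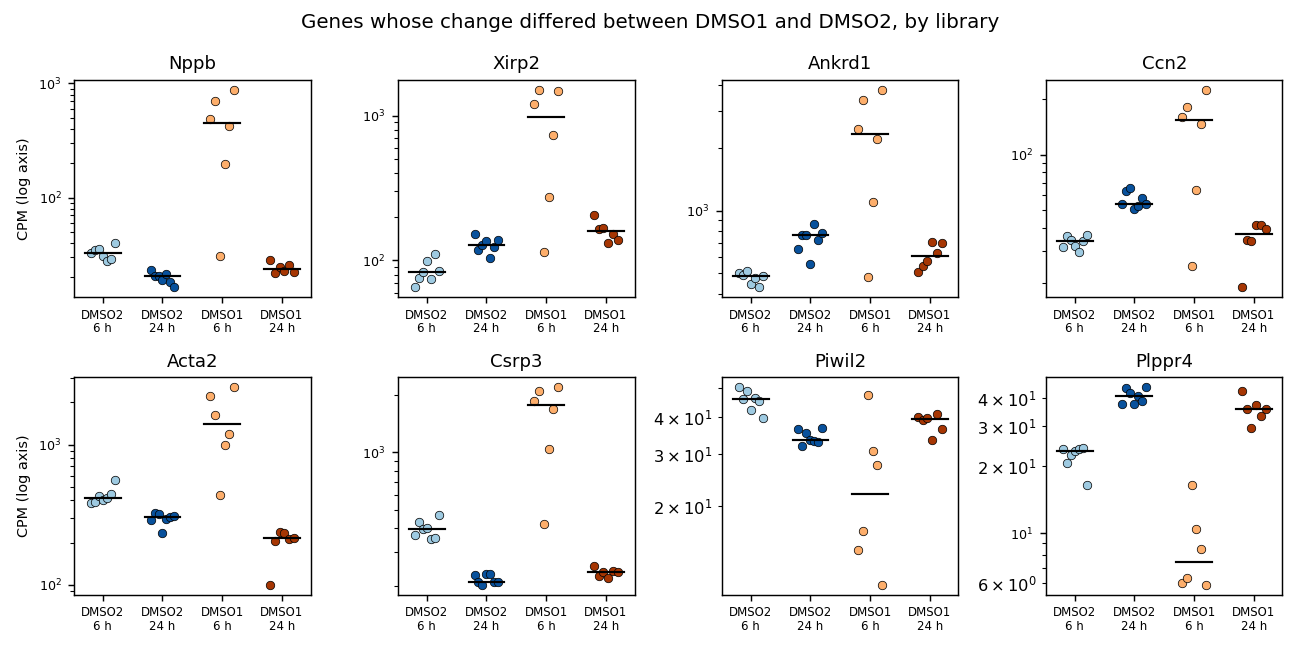
CPM on a log axis in each control library for 8 genes whose change with culture time differed between DMSO1 and DMSO2; points are libraries in the order of their columns within each group and bars are medians. In the first 6 panels the DMSO1 libraries of 6 h are high except the third, and in Piwil2 and Plppr4 they are low except the third, which is the highest of its group.

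By list, the change differed for 11 of 33 sarcomere genes, among them Csrp3, muscle LIM protein (-1.84), and cardiac actin Actc1 (-1.57), for 5 of 12 fetal and stress genes, with Rcan1 at -1.66, and for 9 of 28 TGF-beta genes, with Tgfb2 at -1.83 and Tgfb3 at -1.27. All these were negative, where 3.82% of all genes differed and 3.02% differed in this direction. Without the library that stands apart these counts were 11, 5 and 7. Without library 3 of DMSO1 at 6 h the negative ones were 15, 6 and 11, and 1 sarcomere gene and 1 TGF-beta gene were positive. The fetal and stress list had 3 rises and 4 falls in DMSO2 (median 0.14) and 1 rose and 8 fell in DMSO1 (median -1.51), and the TGF-beta list 9 rises and 4 falls in DMSO2 and 7 rose and 14 fell in DMSO1. Smooth muscle actin, Acta2, read 434 to 2557 (median 1403) CPM in DMSO1 at 6 h and 383 to 561 (median 413) in DMSO2 at 6 h and differed by -2.35. 

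Plppr4, Piwil2, Slc25a34 and Flrt3, among the genes of largest positive difference, had a lower mean level at 6 h in DMSO1 than in DMSO2. Plppr4 read 5.88 to 16.4 (median 7.42) CPM in DMSO1 and 16.3 to 23.9 (median 23.2) in DMSO2 at 6 h, and 29.4 to 42.9 (median 35.9) and 37.5 to 44.7 (median 40.8) CPM at 24 h. Its rise was 0.89 in DMSO2 and 2.0 in DMSO1, a difference of 1.11 ± 0.19 (FDR = 7.05e-05). Piwil2 differed by 1.05, Slc25a34 by 0.92 and Flrt3 by 0.90. The circadian genes Bmal1 (-0.65) and Clock (-0.46) differed too, in the negative direction, and Dbp (0.59) in the positive. Without the library that stands apart, the differences of Piwil2 (1.03, FDR = 0.0105), Slc25a34 (0.89, FDR = 0.0152), Bmal1 (-0.59, FDR = 0.0117), Ppl (0.57, FDR = 0.0185) and Krt18l1 (-1.26, FDR = 0.0123) no longer passed the edgeR test, and without library 3 of DMSO1 at 6 h the rise of Bmal1 in DMSO1 did not pass it either, at 0.30 (FDR = 0.0148). The solvent share moves with the groups, and its part in these differences was not tested.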

How the data were processed

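The labels gave each library its group. According to the study's methods, RNA with polyA tails was sequenced as paired reads, and the authors estimated transcript abundance with kallisto 0.46.0 against the Ensembl rat transcriptome and summed it to genes with tximport, leaving out genes of consistently low counts, so the deposited values are expected counts per gene. They were whole numbers as deposited, and 14009 of the 14554 genes had a symbol. The 65 libraries in 10 groups were fitted in 1 edgeR 4.0.16 quasi-likelihood model with TMM scaling (R 4.3.3, limma 3.58.1), for genes with at least 10 counts in at least 1 library, with Benjamini-Hochberg adjustment over all genes tested and a threshold of 0.01. Contrasts were 24 against 6 h in DMSO2, the same in DMSO1, and DMSO1 minus DMSO2. Counts ran from 14332827 to 21970914 a control library. Principal components used variance-stabilized counts (DESeq2 1.42.0) of the 26 control libraries. Named genes are the 12 largest rises and 12 largest falls in DMSO2 called with the same sign in both controls with a mean count of at least 100, the 5 largest differences in each direction, the 5 largest weights on the first component, and list members beside their list. Some genes are not reported here. Genes called chosen after their values were seen fall outside this rule. The members and lists were chosen with earlier results of these data known, and 1241 of 1330 listed symbols were in the table. The scripts were tested on simulated data. Alternatives were the DESeq2 Wald test, other scalings, filters and thresholds, the control groups alone, other settings of the components, and each library left out in turn. Time in the serum-free medium, time since isolation and time in solvent cannot be told apart, since all move with the 6 and 24 h.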

Additional observations from a re-analysis of the deposited data

Results flagged for a closer look

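For 10 of 160 groups of 6 or 7 libraries of the named genes (6.25%, where chance gives about 5%), the gap of the most extreme library to its neighbour was a large share of the group's range. In DMSO1 at 24 h that share was 0.693 for the lowest Col6a6 value, 0.671 for the lowest Nrk value, 0.675 for the lowest Ccn2 value and 0.789 for the highest Nqo1 value. In DMSO1 at 6 h it was 0.751 for the highest Capn6 value, 0.678 for the highest Flrt3 value, 0.671 for the lowest Gsta5 value and 0.696 for the lowest Tubb4b value. In DMSO2 it was 0.682 for the highest Cyp1a1 value at 24 h and 0.612 for the lowest Adcy5 value at 6 h.

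For 39 of the genes described by name the change with culture time differed between both controls in the edgeR test of the difference (DMSO1 minus DMSO2, log2 scale). Among muscle and stretch genes the difference was -3.49 for Nppb, -3.07 for Xirp2, -2.83 for Scn3b, -2.49 for Ankrd1, -1.84 for Csrp3, -1.66 for Rcan1 and -1.57 for Actc1. Among matrix and TGF-beta genes it was -2.70 for Ccn2, -2.35 for Acta2, -1.83 for Tgfb2 and -1.27 for Tgfb3. Among sterol genes it was -0.85 for Hmgcs1, -0.80 for Idi1, -0.79 for Hsd17b7, -0.74 for Msmo1 and -0.68 for Sqle. Among genes of growth and synthesis it was -1.11 for Mthfd2, of mitochondrial folate metabolism, -0.90 for the factor Jun, -0.79 for Rrp12, -0.63 for Cars1, -0.57 for Mcm5 and -0.36 for Eif4a1. It was -1.27 for Krt18l1, -0.65 for Bmal1, -0.64 for Il1rl1, -0.57 for Dusp4, -0.46 for Clock, -0.44 for Acsl3, -0.42 for Fkbp5 and -0.36 for Eno3. Positive differences were 1.11 for Plppr4, 1.05 for Piwil2, 0.92 for Slc25a34, 0.90 for Flrt3, 0.83 for Klhl33, 0.69 for Atp6ap1l, 0.62 for Ppl, 0.60 for Fbxo32 and 0.59 for Dbp. Without library 1 of DMSO1 at 24 h the differences of Hsd17b7, Idi1, Bmal1, Fkbp5, Ppl, Krt18l1, Piwil2 and Slc25a34 did not pass the test.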

How the results depend on the processing

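No call of a named gene changed sign under the alternatives run. The balance of rises and falls did change: the share of calls that were rises was 40.6 to 52.7% in DMSO2 (51.4% as reported) and 46.9 to 55.5% in DMSO1 (48.1%) under the other tests, scalings, filters and samples, and the share of differences that were positive was 73.7% with library size only (20.9%). Without library 6 of DMSO2 at 6 h, 3544 rose and 3949 fell in DMSO2. The count of genes changed in DMSO2 (7651) was 7478 to 7798 under the other tests, scalings, filters and samples, 9840 at an FDR below 0.1, and 7264 to 7582 with 1 library left out. For DMSO1 (7834) these were 7754 to 7959, 9894 and 7474 to 7818. Changes of at least 2-fold (998 and 1524) numbered 948 to 1031 and 1436 to 1648 with 1 library left out. The count that depended most on a single library was that of genes whose change differed between both controls (556), at 340 without library 6 of DMSO1 at 6 h and 1055 without library 3, and it was 743 by the DESeq2 Wald test, 784 with library size only, 418 with the control groups alone and 1905 at an FDR below 0.1. The first component held 63.8% of variance with genes not scaled and 74.7% over the 500 most variable genes, and 43.2 to 45.5% with 1 library left out. All 67 values of named genes kept their call under the DESeq2 test, its size factors and library size only, and Piwil2 and Flrt3 lost theirs with the control groups alone. With 1 library left out, 30 calls of these values were lost, each of them the difference of Piwil2 or of Slc25a34. Library size only moved 16 of 108 list medians by more than their spread, and leaving out 1 library moved 7. No paired analysis was possible because the columns of the count table carry no replicate numbers that could be tied to the titles.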
